A study of Homo sapiens with 6 samples.

Results

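The genes described here are 41 human genes of homologous recombination and of the Fanconi anemia pathway, taken from a list of symbols and matched to the identifiers in the deposited files. All 41 were found among the 60609 genes listed, and all 41 were among the 20725 genes with enough counts to be tested. They were read out with strand-specific mRNA libraries in OCI-AML5, an established cell line of human acute myeloid leukemia kept in medium with GM-CSF. There were 3 libraries from cells exposed to DMSO, the solvent, and 3 from cells exposed to 1 μM of the compound S767, both for 24 hours. The methods describe the treatment as done in triplicate, and the labels number the libraries of each treatment 1 to 3. Neither says what same-numbered libraries share or how separate the cultures were, so P values measure the spread between these libraries, which may be technical. Each library had 149994700 to 258029564 fragments assigned to genes, and the 41 genes held from 656 to 54963 fragments each in a library. Of 9 myeloid genes looked for, 8 had a mean over 1 TPM, KIT being the exception. None of the 13 markers of T cells, red cells, epithelium and fibroblasts had a mean over 1 TPM, and of 3 B cell markers only CD79A had, at 6.63 to 11.2 TPM. The summed myeloid markers ranged from 672 to 1067 TPM in DMSO and from 673 to 1077 TPM in S767.

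Homologous recombination repairs a DNA double-strand break by copying the intact sister chromatid. Break ends are resected to single strands, BRCA1, PALB2 and BRCA2 prepare them for pairing with the sister, and helicases and nucleases resolve the joined molecules. The Fanconi pathway unhooks crosslinks between the DNA strands: a core complex attaches ubiquitin to FANCD2 and FANCI at a stalled fork, and repair then runs through recombination. Many of these genes are transcribed around S phase, and dividing leukemia cells express them.

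Promoter letters are shown first for 5 of the genes described below. They were called in the paired fit (BRIP1) or their treatment groups did not overlap in normalised counts. These 5 do not stand for all genes of that kind. RBBP8, RAD51C, FANCC, FANCG, BLM and ATRIP were also called or stood apart and are not shown, and FANCI had no window. RefSeq promoter windows (GRCh38.p14, 250 bases before to 50 bases after each start) were found for 38 of the 41 genes. A CCAAT box is the letters CCAAT on either strand. The E2F words searched, on either strand, were TTTCCCGC, TTTGGCGC, TTTCGCGC and TTTGCCGC, and the CHR word was TTTGAA. No CCAAT box shares bases with an E2F word in the stretches printed, which run from 120 bases before the start to 6 bases after it, 5′ to 3′ on the gene's strand. Capitals mark these boxes and words, which read ATTGG or as the reverse complement of the listed word where the match lies on the other strand.
BRIP1 (chr17:61863523-61863648, minus strand): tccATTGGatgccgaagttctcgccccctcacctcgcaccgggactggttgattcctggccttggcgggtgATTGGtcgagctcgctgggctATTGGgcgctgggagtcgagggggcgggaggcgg
CHEK2 (chr22:28741815-28741940, minus strand): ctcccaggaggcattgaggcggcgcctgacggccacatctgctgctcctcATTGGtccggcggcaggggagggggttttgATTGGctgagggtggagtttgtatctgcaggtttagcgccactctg
RAD54L (chr1:46247568-46247693, plus strand): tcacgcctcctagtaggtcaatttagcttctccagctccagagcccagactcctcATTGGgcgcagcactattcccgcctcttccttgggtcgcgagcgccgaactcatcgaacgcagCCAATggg
CLSPN (chr1:35769973-35770098, minus strand): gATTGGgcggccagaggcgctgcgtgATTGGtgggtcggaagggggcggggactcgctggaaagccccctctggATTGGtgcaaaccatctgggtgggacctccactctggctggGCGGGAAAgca
FANCD2 (chr3:10026317-10026442, plus strand): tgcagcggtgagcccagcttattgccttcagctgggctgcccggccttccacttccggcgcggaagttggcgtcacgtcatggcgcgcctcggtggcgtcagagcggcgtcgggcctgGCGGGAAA

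The stretches of BRIP1 and CLSPN each hold 3 CCAAT boxes, those of CHEK2 and RAD54L hold 2, and that of FANCD2 holds none. Among the genes of that kind not shown, the windows of RBBP8, RAD51C and FANCG hold no CCAAT box and no E2F word. Those of BLM and ATRIP hold CCAAT boxes without an E2F word, and a window of FANCC holds E2F words without a CCAAT box. An E2F word stood in a promoter of 7 of the 38 genes (18.4%), against 3.99% of the 27305 genes with a window. The 7 were CLSPN, EXO1, FANCA, FANCC, FANCD2, TOPBP1 and XRCC2. CCAAT boxes were found for 18 genes (47.4%), against 39.7% of all. The CHR word was found for 4 genes (10.5%), against 18.2% of all. These are matches of letters and were not tested as binding sites.

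TPM values, which divide by transcript length and scale each library to the same total, allow levels of different genes to be compared. All 41 genes lay above the median of the tested genes by mean TPM over the 6 libraries, from the 52.8th to the 91.9th percentile. FANCI, which is ubiquitinated together with FANCD2, was the highest, at 83.9 ± 4.60 TPM (SD, n = 3) in DMSO and 88.5 ± 1.41 TPM in S767. TOPBP1, an activator of the ATR kinase, followed at 59.7 ± 3.22 TPM in DMSO, and RAD51C, a strand exchange factor, at 51.5 ± 2.65 TPM. FANCA, of the core complex, was at 50.5 ± 3.38 TPM, and UBE2T, the ubiquitin-conjugating enzyme of the pathway, at 48.9 ± 2.61 TPM. At the other end were FANCM, a DNA translocase, at 6.66 ± 0.485 TPM, FANCB, a core subunit encoded on the X chromosome, at 5.16 ± 0.697 TPM, and RAD51B, of the same family as RAD51C, at 4.91 ± 0.362 TPM. The highest level was 17.1 times the lowest. Between neighbours in this order, the 3 DMSO libraries of each gene overlapped for 34 of 40 pairs. The 6 that did not were FANCI over TOPBP1, TOPBP1 over RAD51C, NBN over MUS81, RAD54L over BLM, CLSPN over RAD51D and FANCM over FANCB. Levels of BRCA1 and BARD1 were uneven, whereas those of PALB2 and BRCA2 lay close together. BRCA1 was at 47.4 ± 1.95 TPM in DMSO and its partner BARD1, the second subunit of the ubiquitin ligase, at 11.9 ± 4.32 TPM. PALB2, the bridge between BRCA1 and BRCA2, was at 12.5 ± 0.369 TPM and BRCA2 itself at 13.5 ± 1.81 TPM.

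**Figure D1:**
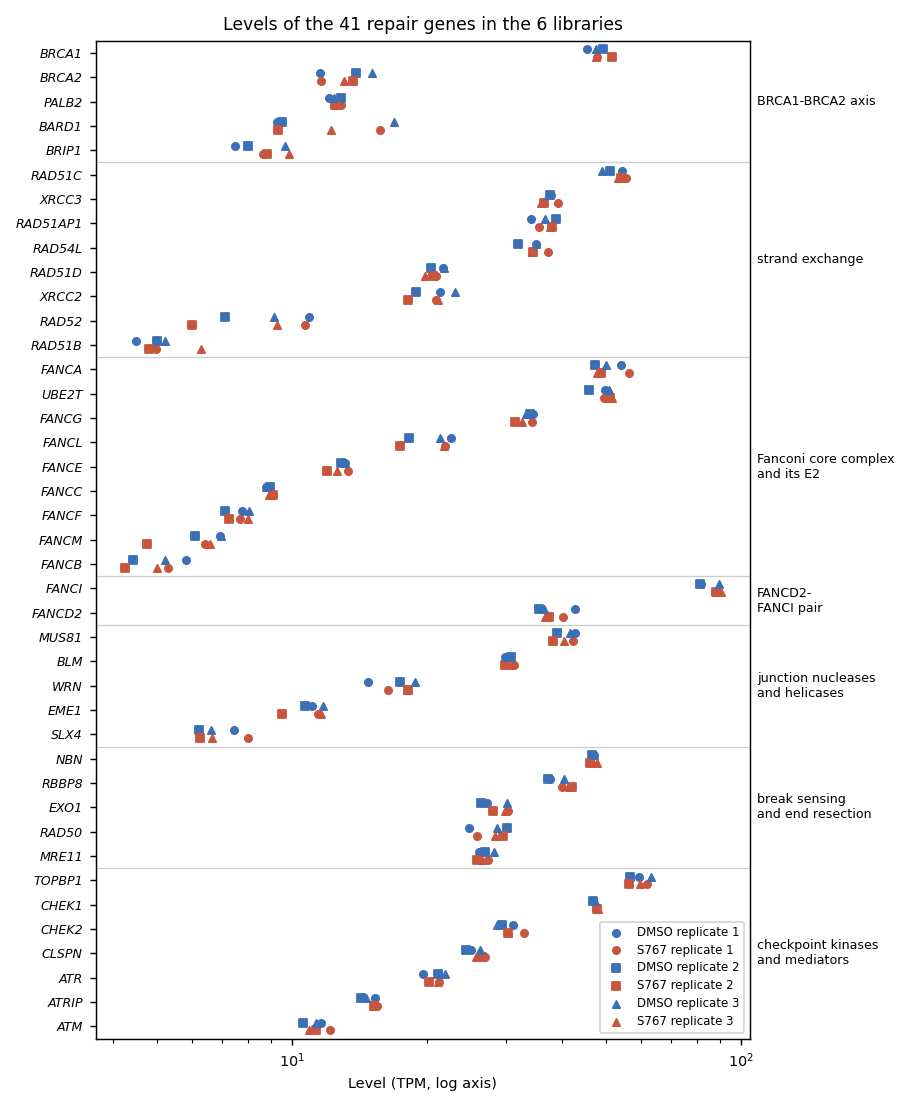
Level of each of the 41 genes (TPM, log axis) in the 6 libraries, grouped by role and ordered by the DMSO mean within a role, with DMSO in blue, S767 in red and a marker shape for each replicate number. FANCI stands highest and RAD51B, FANCB and FANCM lowest, and the colours overlap for most genes, whereas BARD1 and RAD52 are spread along the axis.

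Whether exposure to S767 went with a change of these mRNAs was tested on the counts, normalised to library size as CPM. In the comparison of 3 S767 with 3 DMSO libraries, no member of the 41 passed an adjusted p of 0.05 in the quasi-likelihood test of edgeR, with p-values adjusted by Benjamini-Hochberg over all genes, and the lowest adjusted p among them was 0.99996. That threshold was passed by 1 of the 20725 genes (0.00483%). At an unadjusted P under 0.05, 5 of the 41 (12.2%) were higher in S767, namely RAD54L, FANCD2, FANCI, RBBP8 and CHEK2, against 2.03% of all genes. None was lower, against 1.51% of all genes. Of the 8106 genes within the TPM range of the 41, 241 were higher and 114 lower at that P. The share that was higher is larger than that of all genes. A P under 0.05 together with a log2 fold change beyond 0.4 in size, in either direction, was met by none of the 41 and by 1.23% of all genes. By limma-voom the same 5 had a P under 0.05, and by DESeq2 3 of them, RAD54L, RBBP8 and CHEK2, with no adjusted call by either tool. The 95% intervals of the log2 fold change lay inside ±0.4 for 40 of the 41 genes, and that of RAD52 ran from -0.32 to 0.40.

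Libraries with the same replicate number deviated together, so a paired fit that blocks on the replicate number was also made. In it, 3 of the 41 genes passed an adjusted p of 0.05 in edgeR's quasi-likelihood test and were higher in S767, against 2.16% of all genes. They were BRIP1, FANCI and RBBP8. None passed in the lower direction, against 1.08% of all genes. At an unadjusted P under 0.05 in the paired fit, 13 of the 41 (31.7%) were higher, against 9.38% of all genes, and none was lower, against 7.39%. The other 10 of these were BRCA1, RAD51C, RAD54L, FANCG, FANCD2, BLM, EXO1, ATRIP, CHEK2 and CLSPN. Of the 8106 genes within the TPM range of the 41, 1217 were higher and 779 lower at this P. Both are larger shares than of all genes. At the adjusted threshold 320 of the 8106 were higher and 126 lower, again larger shares than of all genes. The 3 adjusted calls were the same with limma-voom, with DESeq2, with RLE factors and with library size alone, each with the block. On RSEM counts with the block only RBBP8 was called (adjusted p = 0.0360), with FANCI at an adjusted p of 0.0504 and BRIP1 at 0.0565. Without pair 2 none of the 3 was called (adjusted p from 0.408 to 0.442), and without pair 1 9 genes were, the 3 together with RAD51C, RAD54L, UBE2T, EXO1, ATRIP and CHEK2, in a fit that called 9.86% of all genes.

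The differences were small. Over the 41 genes the log2 fold change had a median of 0.04, that over all genes tested was -0.00024, and that over the 8106 genes within the TPM range of the 41 was 0.0055. Of the 41, 28 (68.3%) lay above 0, against 49.8% of all genes and 53.9% of those within that TPM range, and the values ran from -0.07 for EME1 to 0.13 for RBBP8. In the paired fit the 95% intervals of all 41 lay between -0.15 and 0.26. The medians of the 41 in the single pairs were 0.027, 0.040 and 0.035, against 0.0056, 0.0010 and 0.0011 for all genes. The values were higher in S767 in all 3 pairs for 18 of the 41 genes (43.9%), against 19.9% of all genes. They were lower in all 3 pairs for 5 genes (12.2%), against 17.8% of all genes. Those 5 were BARD1, XRCC2, FANCE, EME1 and MUS81. Of the 8106 genes within the TPM range of the 41, 2156 were higher in all 3 pairs and 1565 lower. Both are larger shares than of all genes. All S767 libraries stood above all DMSO libraries for 10 of the 41 genes (24.4%), against 5.12% of all genes. None stood below, against 4.08%. These comparisons are on CPM. On TPM the groups of all 10 genes overlapped. For RAD54L the highest DMSO library was at 34.97 TPM and the lowest S767 library at 34.31 TPM. In bulk libraries, more RNA per cell and more cells that express a gene cannot be told apart.

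**Figure D2:**
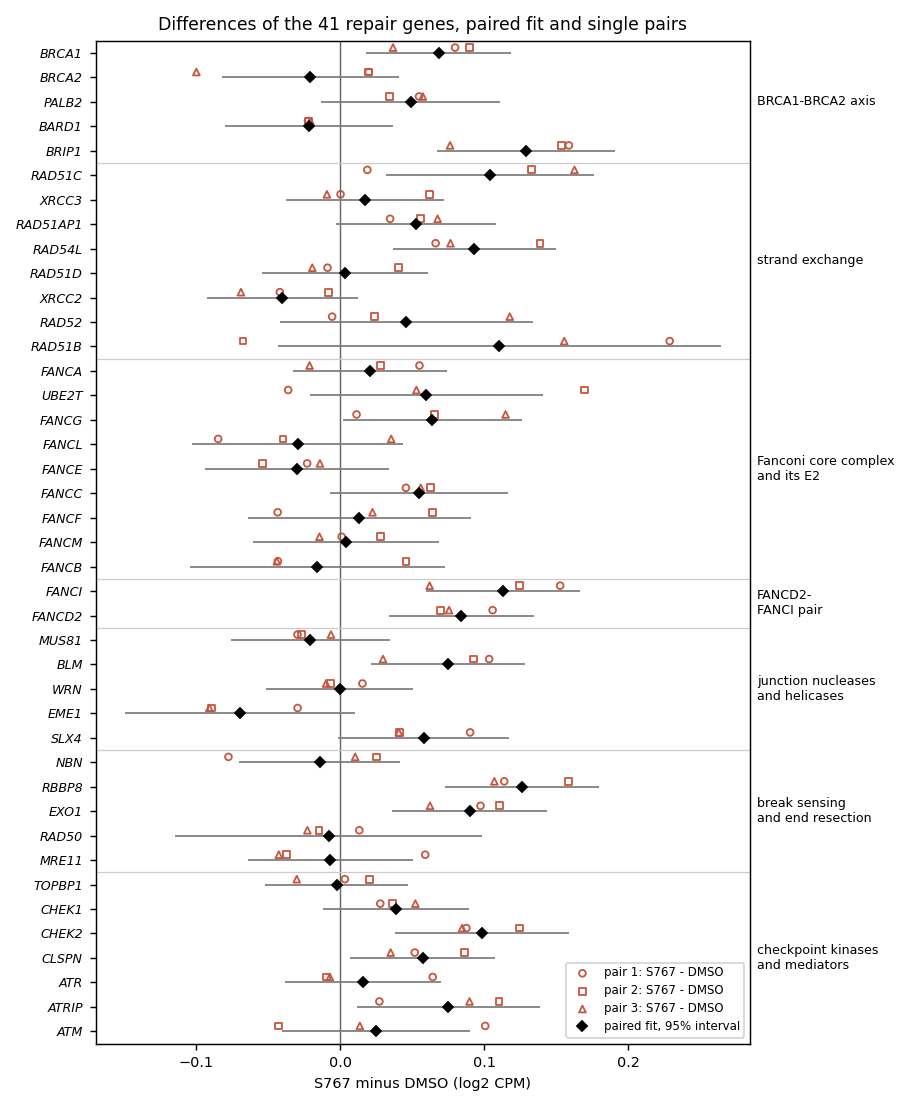
Difference between S767 and DMSO (log2 CPM) for each of the 41 genes, as the estimate of the paired fit with its 95% interval (black diamond and grey line) and as the difference in each of the 3 pairs (open red symbols). The estimates run from -0.07 for EME1 to 0.13 for BRIP1 and RBBP8, and most intervals cross 0.

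Among the 5 genes of the BRCA1-BRCA2 axis the median log2 fold change was 0.05. BRIP1 (ENSG00000136492.8, GRCh38 chr17:61681266-61863521, minus strand) encodes the FANCJ helicase, an iron-sulfur cluster protein that binds BRCA1. Its normalised counts in replicates 1, 2 and 3 were 32.6, 35.5 and 41.9 CPM in DMSO and 36.4, 39.4 and 44.2 CPM in S767. S767 was higher in all 3 pairs, but the replicates differed by more than the treatments and the groups overlapped. BRIP1 was 9.33% higher in S767 by the paired fit. Without pairing its log2 fold change was 0.13 ± 0.10 (SE). In the paired fit the log2 fold change was 0.13 ± 0.03, with an adjusted p of 0.0306 in edgeR's quasi-likelihood test. BRCA1 was at 142 ± 6.24 CPM in DMSO and 149 ± 7.81 CPM in S767, and its paired log2 fold change of 0.07 had an adjusted p of 0.146 (edgeR). The paired log2 fold changes of the others were 0.05 for PALB2, -0.02 for BRCA2 and -0.02 for BARD1, with adjusted p of 0.434, 0.786 and 0.757 (edgeR).

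The next group takes part in strand exchange, in which a resected end pairs with the intact copy, and RAD54L is the motor protein that drives strand invasion. These 8 genes had a median log2 fold change of 0.05. RAD54L (ENSG00000085999.13, GRCh38 chr1:46247688-46278473, plus strand) was at 53.8, 52.0 and 54.0 CPM in DMSO and at 56.3, 57.2 and 56.9 CPM in S767. The groups did not overlap. Its log2 fold change was 0.09 ± 0.04 without pairing, and the adjusted p was 0.0769 in the paired fit (edgeR). RAD51B (ENSG00000182185.18, GRCh38 chr14:67819779-68730218, plus strand) was at 3.72, 4.41 and 4.27 CPM in DMSO and at 4.36, 4.21 and 4.76 CPM in S767. It had the largest fold change of the group but was lower in pair 2, and the groups overlapped. Its log2 fold change was 0.10 ± 0.10 without pairing, and the adjusted p was 0.484 in the paired fit (edgeR). RAD51C had a paired log2 fold change of 0.10 and an adjusted p of 0.121 (edgeR). On CPM it stood higher in each S767 library than in any from DMSO. RAD51AP1, a DNA-binding cofactor of strand invasion, had a paired log2 fold change of 0.05 (adjusted p = 0.326, edgeR) and was higher in all 3 pairs. The values of RAD51D, XRCC3, RAD52 and XRCC2 were 0.0034, 0.02, 0.05 and -0.04, none with a P under 0.05.

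The 9 genes of the Fanconi core complex and its conjugating enzyme had a median log2 fold change of 0.01. FANCG (ENSG00000221829.9, GRCh38 chr9:35073835-35080016, minus strand), a scaffold subunit of the core, was at 40.4, 40.1 and 38.4 CPM in DMSO and at 40.7, 42.0 and 41.6 CPM in S767. The groups stood apart by a narrow margin. The log2 fold change was 0.06 ± 0.04 without pairing, and the adjusted p was 0.284 in the paired fit (edgeR). On the log2(TPM + 1) scale FANCG was lower in S767, by -0.05, and the mean transcript length that RSEM gave it was 1554 to 1568 bases in DMSO and 1616 to 1714 bases in S767. FANCC, another core subunit, was at 27.8 ± 0.157 CPM in DMSO and 28.9 ± 0.317 CPM in S767, without overlap, with a paired log2 fold change of 0.05 and an adjusted p of 0.366 (edgeR). FANCF, also of the core, had a paired log2 fold change of 0.01 (adjusted p = 0.904, edgeR). The remaining paired values ran from -0.03 for FANCE and FANCL, the latter being the ubiquitin ligase subunit, to 0.06 for UBE2T, which was lower in pair 1 and higher in pairs 2 and 3.

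FANCD2 and FANCI form the clamp that the core complex marks with ubiquitin, and both had a P under 0.05 in both fits. FANCI (ENSG00000140525.17, GRCh38 chr15:89243949-89317261, plus strand) was at 173, 183 and 192 CPM in DMSO and at 193, 199 and 200.5 CPM in S767. The lowest S767 library was just above the highest DMSO library. FANCI was 8.14% higher in S767 by the paired fit, with an adjusted p of 0.0283 (edgeR). Without pairing its log2 fold change was 0.11 ± 0.04. FANCD2 (ENSG00000144554.10, GRCh38 chr3:10026414-10101930, plus strand) was at 92.9, 92.3 and 91.4 CPM in DMSO and at 99.95, 96.9 and 96.3 CPM in S767. The DMSO libraries lay within a narrow range and all S767 libraries stood above them. The log2 fold change was 0.08 ± 0.03 without pairing, and the adjusted p was 0.0741 in the paired fit (edgeR). On the log2(TPM + 1) scale the difference of FANCD2 was -6.5e-05. The RSEM length of FANCD2 was 2900 bases in DMSO replicate 1 and 3316 to 3428 bases in the other 5 libraries.

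**Figure D3:**
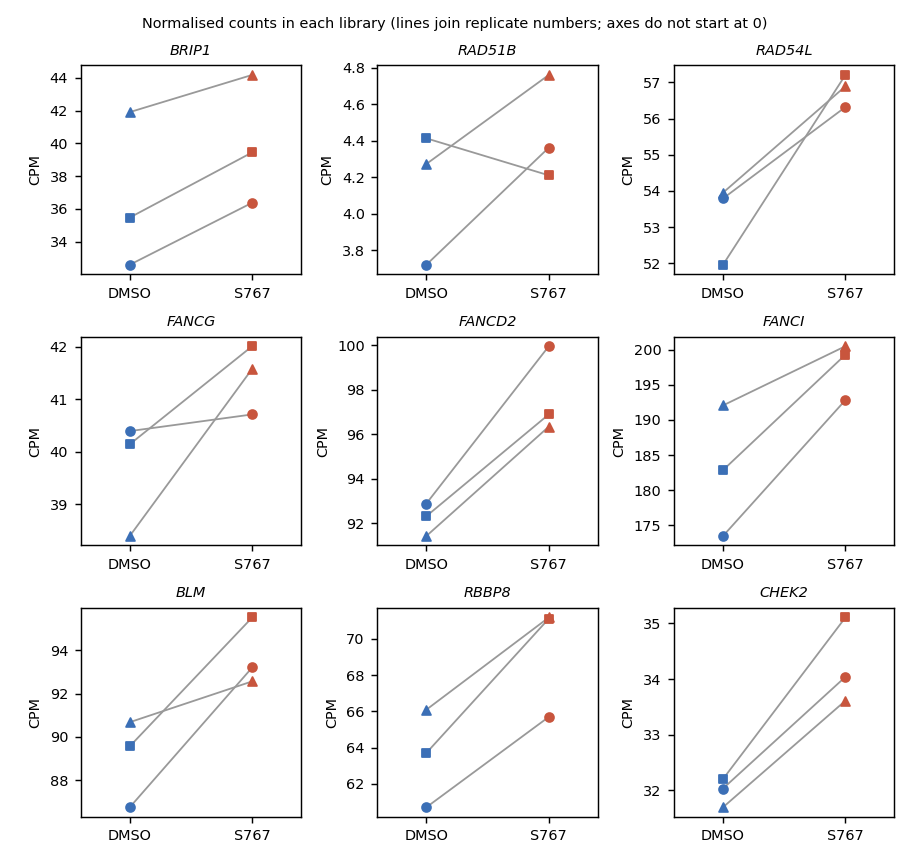
Normalised counts (CPM) of 9 genes in DMSO (blue) and S767 (red), with a line joining the libraries that share a replicate number. Every line goes up except that of RAD51B replicate 2, and the groups overlap for BRIP1, RAD51B and RBBP8. Axes do not start at 0.

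The 5 junction nucleases and helicases had a median log2 fold change of -0.0012. BLM (ENSG00000197299.12, GRCh38 chr15:90717327-90816165, plus strand), the helicase that dissolves double Holliday junctions, was at 86.8, 89.6 and 90.7 CPM in DMSO and at 93.2, 95.5 and 92.6 CPM in S767. The groups did not overlap. The log2 fold change was 0.08 ± 0.04 without pairing, and the adjusted p was 0.132 in the paired fit (edgeR). MUS81 and EME1, the subunits of a structure-selective nuclease, were both lower in all 3 pairs, with paired log2 fold changes of -0.02 (adjusted p = 0.753, edgeR) and -0.07 (adjusted p = 0.371, edgeR). The opposite strand at EME1, where LRRC59 overlaps 16.4% of its exon bases, held 193% as many fragments, and without regard to strand the log2 fold change of EME1 was -0.06. SLX4, the scaffold of the nucleases, was at 0.06 (adjusted p = 0.311, edgeR), and WRN, a RecQ helicase, at -0.00050 (adjusted p = 0.995).

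Among the 5 genes of break sensing and end resection, the largest values were those of the resection factors RBBP8 and EXO1. RBBP8 (ENSG00000101773.19, GRCh38 chr18:22798261-23026488, plus strand) encodes CtIP, which starts resection with MRE11. It was at 60.7, 63.7 and 66.1 CPM in DMSO and at 65.7, 71.1 and 71.2 CPM in S767. All pairs went up, and the lowest S767 library lay within the DMSO range. RBBP8 was 9.13% higher in S767 by the paired fit, with an adjusted p of 0.0176 (edgeR). Without pairing its log2 fold change was 0.13 ± 0.05. EXO1, the exonuclease that extends resection, had a paired log2 fold change of 0.09 and an adjusted p of 0.0737 (edgeR). The members of the MRE11-RAD50-NBN sensor had paired values of -0.0069, -0.0082 and -0.01 in that order, with adjusted p from 0.844 to 0.958 (edgeR) and differing signs between pairs. The comparison of the 2 sets of genes with each other was not tested. The fragments that the authors' counting gave RAD50 were few, at 6.39 to 8.32 CPM, and RSEM assigned 16.4 times as many. Of its exon bases, 79.7% overlap the same-strand gene AC116366.3. On RSEM counts its paired log2 fold change was 0.04 (adjusted p = 0.398, edgeR).

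Of the 7 checkpoint genes, 6 lay above 0, with a median log2 fold change of 0.04. CHEK2 (ENSG00000183765.22, GRCh38 chr22:28687743-28742422, minus strand), the kinase downstream of ATM, was at 32.0, 32.2 and 31.7 CPM in DMSO and at 34.0, 35.1 and 33.6 CPM in S767. The DMSO libraries lay close together and below all S767 libraries. The log2 fold change was 0.10 ± 0.04 without pairing, and the adjusted p was 0.0785 in the paired fit (edgeR). ATRIP, the partner of ATR, had a paired log2 fold change of 0.07 (adjusted p = 0.210, edgeR), and CLSPN, the claspin adaptor of CHEK1, had 0.06 (adjusted p = 0.229). On CPM the S767 libraries of both stood above all DMSO libraries. Of the exon bases of ATRIP, 27.9% overlap the same-strand gene TREX1, and on RSEM counts its paired value was 0.04 (adjusted p = 0.554, edgeR). The kinases CHEK1, ATM and ATR had paired values of 0.04, 0.02 and 0.02, and TOPBP1 had -0.0024, none with a P under 0.05. An exact two-sided permutation test of the 6 libraries allows no p below 0.1. Groups that stand apart always give that value, so the test adds nothing for the 10 genes whose groups stood apart.

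Other genes of the pathway were counted from a list of 59, of which 57 were tested. Their median log2 fold change was 0.02. In the paired fit 2 of the 57 passed an adjusted p of 0.05, both higher, against 2.16% of all genes. They were HUS1, a subunit of the checkpoint clamp (0.15, adjusted p = 0.0197, edgeR), and TIMELESS, a fork protection factor (0.10, adjusted p = 0.0419, edgeR). At an unadjusted P under 0.05, 7 of the 57 were higher, against 9.38% of all genes, and 4 lower, against 7.39%. The 4 that were lower were UIMC1, ABRAXAS1, MDC1 and RIF1, all listed under break signalling and repair choice, a grouping that was not tested. Of 10 genes of non-homologous end joining, the route that competes with recombination, none had a P under 0.05 in either fit, and the median was 0.0032. Of 22 genes of S phase replication the median was 0.0025, with 2 higher and 4 lower at an unadjusted P under 0.05 in the paired fit. Of 18 genes of G2 and mitosis the median was -0.04, with none higher and 8 lower, of which AURKA, PLK1, CENPE and CDC20 passed an adjusted p of 0.05 (edgeR). The part of cell cycle distribution in the values of the 41 genes was not tested.

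For most of the 41 genes more of the variation went with the replicate number than with the treatment. The replicate number has more levels than the treatment, so its share tends to be the larger even where neither has an effect. The share of the sum of squares of log2 CPM held by the replicate number had a median of 68.7% over the 41 genes, against 62.8% for all genes, and treatment held 12.2%, against 10.2%. The medians over the 8106 genes within the TPM range of the 41 were 72.1% for the replicate number and 10.1% for treatment. The replicate share was the larger of the 2 for 29 of the 41 (70.7%), against 80.5% of all genes. It was over 90% for 9 genes (21.95%), against 15.7% of all genes. They were RAD50, WRN, FANCM, BARD1, RAD52, FANCB, XRCC2, SLX4 and FANCL. RAD52, an annealing protein, was at 15.6, 10.7 and 13.0 CPM in DMSO and at 15.5, 10.9 and 14.1 CPM in S767, so replicate 1 was highest and replicate 2 lowest under both treatments. The treatment share was over 80% for 4 genes (9.76%), FANCC, RAD54L, CHEK2 and FANCD2, against 1.74% of all genes. BARD1 was at 35.3, 32.5 and 39.5 CPM in DMSO and at 34.8, 32.0 and 38.9 CPM in S767, so replicate 3 was highest and replicate 2 lowest under both treatments. Its TPM did not follow this order, at 9.28, 9.51 and 16.9 TPM in DMSO and 15.7, 9.34 and 12.2 TPM in S767. The RSEM length of BARD1 ranged from 2890 to 4801 bases, and its share in these values was not tested.

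**Figure D4:**
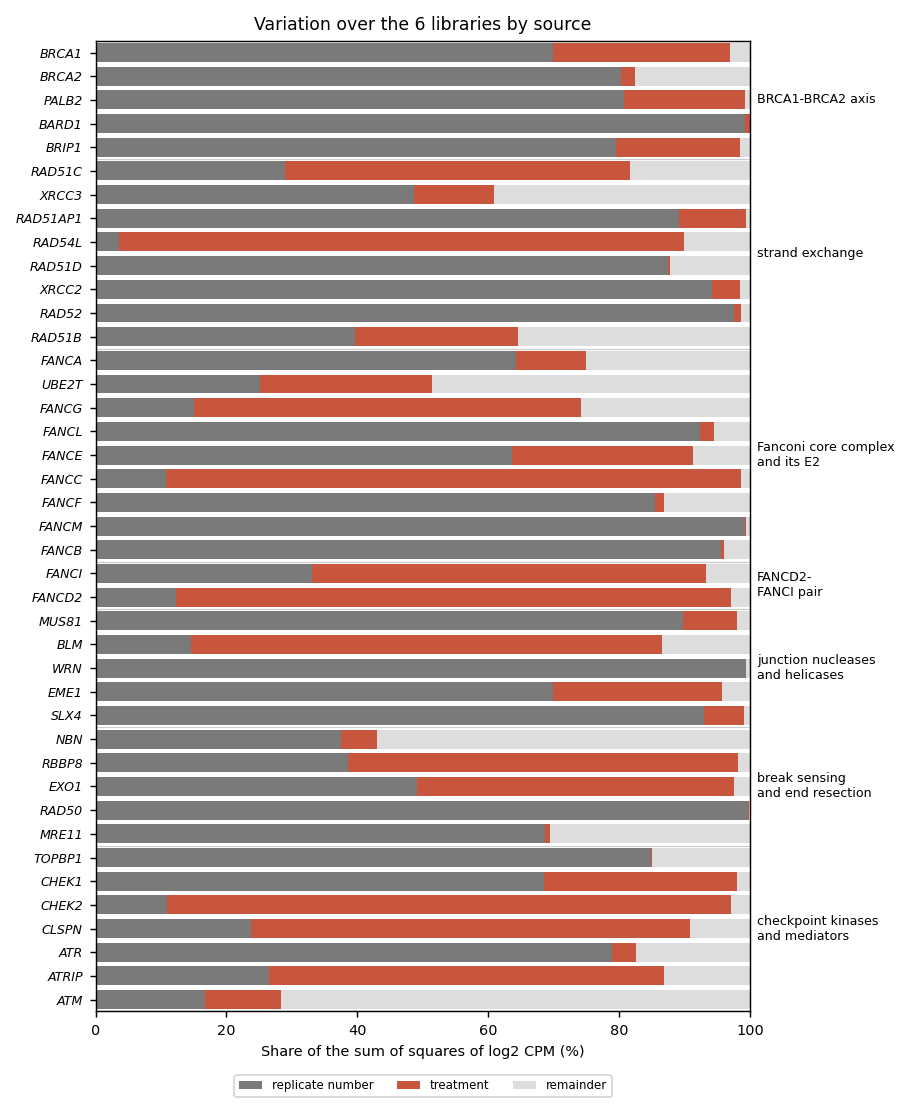
Share of the sum of squares of log2 CPM over the 6 libraries (percent) held by the replicate number (grey), the treatment (red) and the remainder (light grey) for each of the 41 genes. Grey fills over 90% of the bar for 9 genes and red over 80% for FANCC, RAD54L, CHEK2 and FANCD2.

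The balance within complexes was compared for 14 pairs of partner genes as the log2 ratio of their TPM, by exact two-sided permutation tests over the 6 libraries. These tests did not use the replicate numbers, so the spread between replicates counts against a difference. No difference between the treatments passed 0.05, the lowest unadjusted p being 0.2 and all adjusted p being 1, in a design that allows no p below 0.1. The largest differences were -0.10 for BRCA2 over PALB2, 0.09 for RAD51C over XRCC3 and -0.09 for FANCL over UBE2T. The ratio of BRCA1 to BARD1 ran from 2.82 to 5.52 over the libraries and that of MUS81 to EME1 from 3.48 to 4.004. The ratio of FANCD2 to FANCI was 0.524, 0.437 and 0.409 in DMSO and 0.459, 0.426 and 0.407 in S767. On TPM it was lower in S767 in all 3 pairs, by a log2 difference of -0.08 (exact permutation p = 0.6). By pair the differences were -0.19, -0.04 and -0.0076. On counts the difference was -0.03, and in pair 3 log2 CPM rose by 0.075 for FANCD2 and 0.062 for FANCI. The RSEM length of FANCD2 was 2900 bases in DMSO replicate 1, and its part in the ratio was not tested. On TPM the ratio of FANCE to FANCC was lower in all 3 pairs as well, by -0.08 (exact permutation p = 0.2). The ratios of NBN and MRE11 to RAD50, computed on TPM, differed by -0.0054 and -0.03.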

How the data were processed

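OCI-AML5 libraries (3 DMSO, 3 S767) were grouped by treatment and replicate number in the labels. The authors deposited whole-number fragment counts per gene (STAR 2.7.1a), without normalization, and RSEM 1.2.28 expected counts and TPM, all on GRCh38 per the submitters' processing notes. The annotation release is not given in the sources used here. Positions are those of GENCODE 29. Reverse-strand counts were used, since the forward strand held 6.44 to 6.58% of the counts on both. Lines that name no gene (19.7 to 20.7% of fragments) were left out.

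Counts were normalised with TMM, kept by filterByExpr (minimum count 10) and tested with the quasi-likelihood test of edgeR 4.0.16 (R 4.3.3), with Benjamini-Hochberg adjustment over 20725 genes. Standard errors follow from the fit, and log2 CPM used a prior count of 2. The counting error is small at these depths, and the spread between libraries limits precision. No pair of libraries was a repeat (chi-square per gene at least 15.2). Deviations from group means, over 6191 genes, correlated at 0.779, 0.872 and 0.754 between same-numbered libraries, so the numbers were taken to pair the libraries. The pairing comes from these values. Other correlations were negative, which the centring on group means brings about on balance once these are positive.

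Alternatives were the replicate block, DESeq2 1.42.0, limma-voom (limma 3.58.1), library size alone or RLE factors in place of TMM, other filters, RSEM expected counts rounded to whole numbers, unstranded counts, log2(TPM + 1) and log2(TPM + 0.1), and leaving out libraries or pairs. Every member was named, with values in all libraries for those with P under 0.05, those called in the paired fit, and the largest fold change of each role group; RAD51B, FANCG and BLM entered by the last rule. Per-library values of BARD1 and RAD52 were added after their values were seen. The members and gene lists were chosen with earlier results of these data known.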

Additional observations from a re-analysis of the deposited data

How the results depend on the processing

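With the replicate block 670 of all genes passed an adjusted p of 0.05 in place of 1, 3 of the 41 in place of 0, and 13 of the 41 had a P under 0.05 in place of 5. With the block, the counts of all genes called, of the 41 called and of the 41 with a P under 0.05 were 609, 3 and 12 with limma-voom, 630, 3 and 10 with DESeq2, 617, 3 and 12 with library size alone, 661, 3 and 12 with RLE factors, and 394, 1 and 13 on RSEM counts, where XRCC2 was the 1 gene of the 13 that was lower. Leaving out each pair gave 24 to 2034 genes called, 0 to 9 of the 41 called and 5 to 16 with a P under 0.05, lowest without pair 2 and highest without pair 1, with 636, 3 and 9 without pair 3. Without the block, DESeq2 called 25 genes, and 3 of the 41 had a P under 0.05 with it. The latter count was 3 with library size alone and 2 with no filter, where 9 genes were called. On log2(TPM + 1) and log2(TPM + 0.1) no gene was called and none of the 41 had a P under 0.05. Leaving out 1 library gave 1 or 2 genes called and 0 to 4 of the 41 with a P under 0.05, with 0 without DMSO replicate 2, S767 replicate 2 or S767 replicate 3.

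The median log2 fold change of the 41 was 0.027 to 0.048 with a library left out, 0.030 with the block and without pair 3, and 0.021 and 0.022 on the TPM scales. FANCG reversed on those scales (-0.052 and -0.054), and FANCD2 on log2(TPM + 1) (-6.5e-05). BRIP1, RAD51B, RAD54L, FANCI, BLM, RBBP8 and CHEK2 were higher in S767 under every alternative run. Ratios of partners reversed on counts for BRCA1 over BARD1 (0.090), MRE11 over RAD50 (0.0010) and FANCA over FANCG (-0.043). With a replicate pair left out they reversed for BRCA1 over BARD1 (range -0.295 to 0.279), MUS81 over EME1 (-0.043 to 0.054), NBN over RAD50 (-0.027 to 0.030), ATR over ATRIP (-0.134 to 0.00060), RAD51D over XRCC2 (-0.021 to 0.032) and RAD51C over RAD51B (-0.129 to 0.014). The causes were not tested.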
